A study of Mus musculus with 6 samples.

Results

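The cadherins and the non-clustered protocadherins of the mouse vestibular epithelium were examined as a group of 38 protein-coding genes, out of 22027 protein-coding genes and 52636 genes in the count table. The members were chosen by gene symbol alone (Cdh, Cdhr or Pcdh followed by a digit), leaving out Cdh23 and Pcdh15, which form the tip link of the stereocilia. All 6 animals were young adult male mice of the 129S1/SvImJ strain. The 3 animals of the Control group drank plain water, and the 3 animals of the IDPN group drank water with 30 mM 3,3'-iminodipropionitrile, a nitrile toxic to the vestibular hair cells (HCs), for 8 weeks. Each library held RNA of the utricles and cristae of 1 animal, so sensory cells, supporting cells, nerve terminals, vessels and connective tissue were measured together, and fewer cells of a type cannot be told apart from less RNA per cell. The Control animals carried a code stem in their titles that no IDPN animal had, and a difference between these sets of animals cannot be told apart from the treatment.

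Classical cadherins are transmembrane proteins that bind each other across the gap between neighbouring cells in the presence of calcium, while their cytoplasmic tails hold catenins that connect to actin. Type I cadherins, such as E-cadherin (Cdh1) and N-cadherin (Cdh2), build the adherens junctions of epithelia and neural tissue, and type II cadherins are known for sorting neurons, mesenchyme and endothelium. Non-clustered protocadherins have related extracellular repeats but no catenin-binding tail, and in the vestibular epithelium the apical junctions between HCs and supporting cells carry cadherins and catenins.

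Each library summed to between 40474847 and 43566332 estimated counts. The 100 most abundant genes took 48.3 to 54.5% of the counts in Control and 44.6 to 48.2% in IDPN, and replicates of a group differed by far more than sampling noise, so no library was a duplicate of another. Values below are normalized counts (estimated counts divided by the DESeq2 size factor of the library) unless a sentence says otherwise. A gene was called when its DESeq2 adjusted p (Padj, over all 17650 genes tested) was under 0.05 and its fold change above 1.5. Genes that mark HCs were detected in every library. Of these 15 marker genes, 9 were called lower in IDPN and 0 higher, with a summed level of 793498 to 1041676 in Control and 582799 to 784892 in IDPN. Spp1, which was not called (DESeq2 Padj = 0.0502), made up 95.6 to 97.2% of this sum, and the other 14 genes summed to 31477 to 35180 in Control and 21323 to 22039 in IDPN.

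Of the 38 members, 30 had a Padj. Cdh12, Cdh16, Cdh17, Cdhr2 and Cdhr3 had 0 counts in every library, which allows up to 3 estimated counts in a library. Cdh7, Pcdh8 and Cdhr5 had counts but no Padj, because their mean was too low for the independent filtering of DESeq2. Cdh7 stood at 0 in the Control libraries and at 16, 1 and 0 estimated counts in the IDPN libraries. These 8 genes were not detected or only barely detected at this depth, and nothing is said here about a change in them.

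The group was dominated by 2 genes. For a comparison between genes, normalized counts were divided by the length of the longest protein-coding transcript and are given per kb. Pcdh20, a protocadherin outside the delta families, came first with 3165 ± 61.6 per kb in Control and 1935 ± 220 per kb in IDPN (SD, n = 3). Cdh1 came second with 1023 ± 61.5 per kb in Control and 1473 ± 320 per kb in IDPN (SD, n = 3). Pcdh20 was above Cdh1 within each of the 6 libraries, and all other members lay far below both. Of the per-kb sum over the members, Pcdh20 took 58.3, 60.6 and 58.2% in the Control libraries and 47.7, 41.9 and 44.9% in the IDPN libraries. The share of Cdh1 was 19.7, 18.7 and 18.7% in Control against 30.5, 39.2 and 32.1% in IDPN. The shares of both genes therefore lay in separate ranges in the 2 groups, in opposite directions. Both are parts of the same sum, so a fall in Pcdh20 alone raises the share of Cdh1. The opposite directions are thus not 2 separate observations.

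After these came Pcdh9 (206 ± 44.9 per kb in Control), Cdh19 (158 ± 32.1), Cdh3 (143 ± 9.13), Cdh11 (134 ± 20.9) and Cdh2 (129 ± 10.9; SD, n = 3 each). Each of these 5 genes overlapped with the next in Control, while Pcdh9 lay above Cdh3, Cdh11 and Cdh2 in every Control library. Cdh18 followed with 89.4 ± 10.6 per kb in Control and 27.9 ± 7.36 per kb in IDPN, below the 7 genes above it in Control. The plot of levels per kb shows this order.

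**Figure D1:**
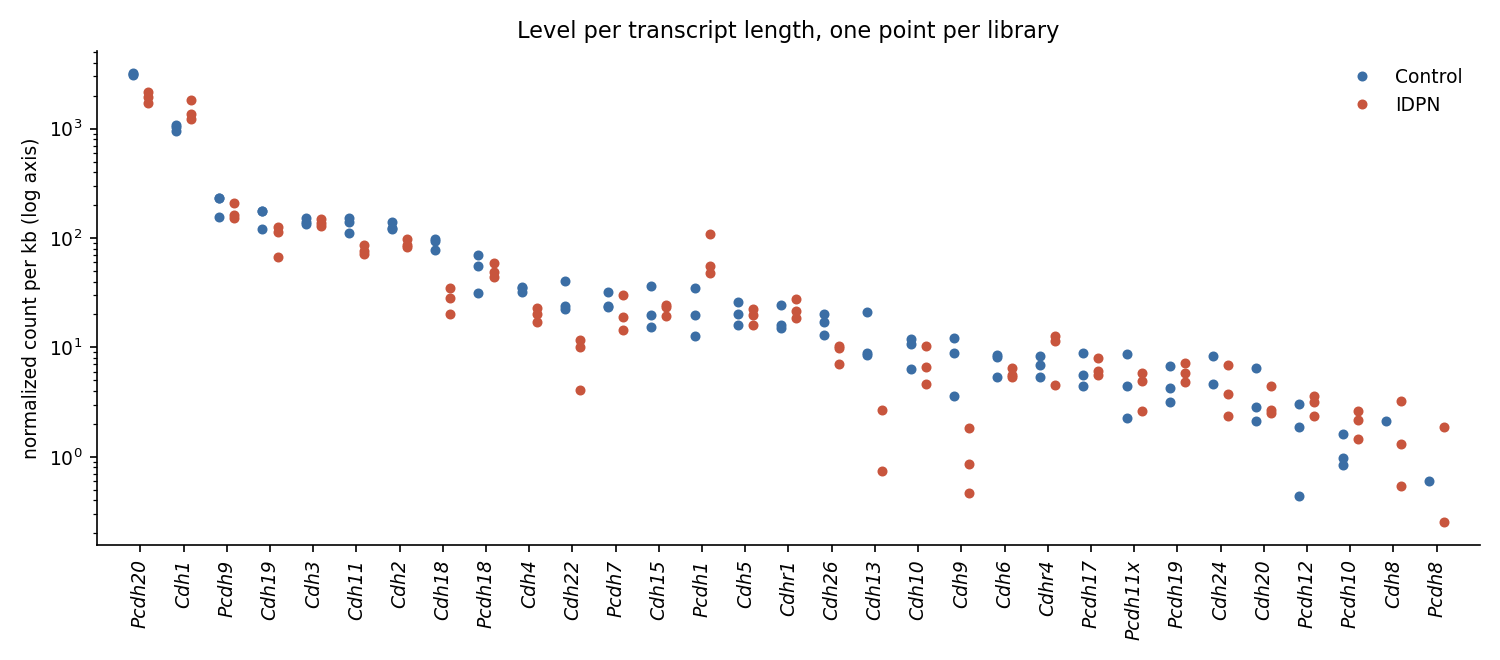
Normalized counts per kb of transcript on a log axis for the members, with a point for each of the 3 Control and the 3 IDPN libraries and values of 0 not drawn. Pcdh20 and Cdh1 lie above all other members in every library, at 3165 and 1023 per kb on average in Control.

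Among the 30 members tested, 7 were called lower in IDPN (Cdh13, Cdh9, Cdh22, Cdh18, Cdh11, Cdh4 and Pcdh20) and 1 was called higher (Pcdh1). Over all genes tested, 3.42% were called lower and 2.32% higher, or 5.75% in either direction. In 9 members all 3 IDPN libraries lay below all 3 Control libraries, and in 2 members they lay above, against 11.4% and 11.1% of all genes tested. The median log2-Fold_Change of the members was -0.23, against 0.02 over all genes, and 20 of 30 members had a negative value. The number of calls depended on the method, as the edgeR quasi-likelihood test called 3 members lower (Cdh18, Cdh11 and Pcdh20, against 2.19% of all genes) and 0 higher (1.02%; either direction 3.21%). With libraries scaled to their total counts, which shifts the median of all genes to 0.27, Cdh13, Cdh18 and Cdh9 were called lower (1.28% of all genes) and Cdh1 and Pcdh1 higher (3.64%; either direction 4.92%). Cdh18 was the one member called by all 3 of these methods. At an unadjusted p under 0.05 DESeq2 and edgeR each gave 9 members lower and 2 higher, where 9.15% of all genes were lower and 7.77% higher with DESeq2, and 9.12% and 8.57% with edgeR.

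**Figure D2:**
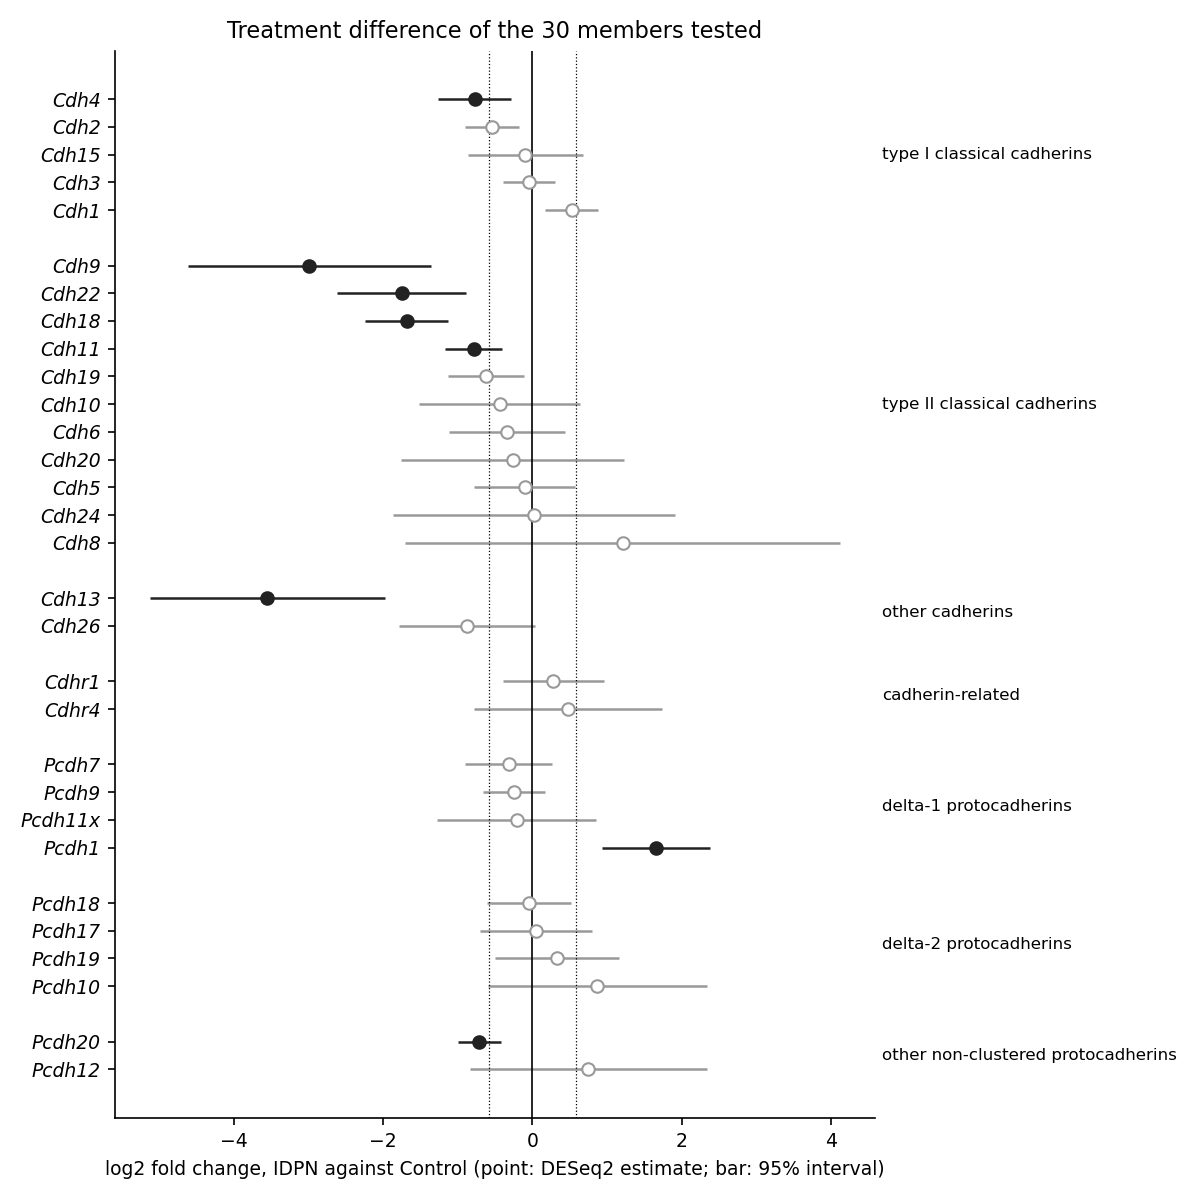
Log2-Fold_Change (IDPN against Control) of the 30 members tested, grouped by class, with the 95% interval of the DESeq2 estimate and filled black points for the genes called. The called genes run from -3.55 for Cdh13 to 1.65 for Pcdh1, and the dotted lines mark the fold change of 1.5.

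Type II cadherins held most of the lower calls. Of the 13 genes of the class 11 were tested, 4 were called lower and 0 higher, and 9 had a negative log2-Fold_Change. Their summed level was 2058, 1865 and 1973 in the Control libraries and 1218, 1061 and 1151 in the IDPN libraries. The ranges did not overlap, and the log2 ratio of the group means was -0.78, or -0.52 with total-count scaling. At an unadjusted p under 0.05 both DESeq2 and edgeR gave 5 genes of the class lower and 0 higher, beside the shares of all genes given above for that threshold.

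Cdh18 (ENSMUSG00000040420.14, chr15:22549022-23474418 on the plus strand of GRCm38), a type II cadherin best known from the nervous system, had the smallest Padj of the members. It stood at 212, 267 and 257 in the Control libraries and at 77.0, 96.4 and 56.0 in the IDPN libraries. The highest IDPN library was thus below the lowest Control library by a wide margin. Cdh18 fell in IDPN (log2-Fold_Change -1.69, SE 0.28, n = 3 and 3, DESeq2 Padj = 4.00e-07), a level 3.22-fold lower, and the edgeR quasi-likelihood test gave an adjusted p of 0.00796. The call was kept without any single library. Cdh18 is named by the study and belongs to a gene list that the study chose partly on these libraries, so its direction is not independent evidence.

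Cdh22, a type II cadherin first known from pituitary and brain, stood at 88.5, 83.1 and 150 in Control and at 37.2, 15.1 and 42.9 in IDPN. All IDPN libraries were below all Control libraries. It fell in IDPN (log2-Fold_Change -1.75, SE 0.44, DESeq2 Padj = 0.00271), but the edgeR adjusted p was 0.0656, and without Control 3, its highest library, the DESeq2 Padj was 0.0644. Cdh9, known for its part in the matching of synaptic partners, was a low-count gene at 31.5, 12.7 and 43.6 in Control and 1.66, 3.01 and 6.53 in IDPN. It fell in IDPN (log2-Fold_Change -2.99, SE 0.83, DESeq2 Padj = 0.0089; edgeR 0.0558). Its Padj rose to 0.0811 without Control 1 and to 0.0754 without IDPN 1, no Padj was given without Control 3, and an antisense gene overlaps one of its exons, so reads of the 2 genes may be mixed.

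Cdh11, a cadherin of mesenchyme, stood at 855, 626 and 788 in Control and 430, 486 and 401 in IDPN. The groups did not overlap. It fell in IDPN (log2-Fold_Change -0.79, SE 0.20, DESeq2 Padj = 0.00238; edgeR 0.0299), while total-count scaling gave a Padj of 0.197. In the same libraries 1 of 10 stromal marker genes (Pou3f4) was called lower, while 6 of the 10 had a positive log2-Fold_Change and Col1a2 (0.43, not called) had every IDPN library above every Control library. The summed level was 1567983 to 2520740 in Control and 1621441 to 1822396 in IDPN, of which Coch took 97.4 to 98.6%, and the other 9 genes summed to 23353 to 42688 and 39149 to 41722. The part of stroma in the level of Cdh11 was not tested.

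Cdh19, a cadherin of neural crest and Schwann cells, was not called. It stood at 693, 688 and 472 in Control and at 497, 262 and 447 in IDPN, and the groups overlapped (log2-Fold_Change -0.62, SE 0.26, DESeq2 Padj = 0.158). Of the 9 Schwann cell marker genes, 0 were called by DESeq2 or edgeR (3 lower and 2 higher at an unadjusted DESeq2 p under 0.05, 1 and 2 with edgeR), and their summed level was 107471 to 236093 in Control and 93957 to 114446 in IDPN. Cdh5, the cadherin of endothelial junctions, stood at 81.3, 64.6 and 104 in Control and at 79.5, 89.4 and 64.4 in IDPN, with a log2-Fold_Change of -0.11 (SE 0.35, 95% interval -0.78 to 0.57) that turned positive under total-count scaling. Of the 9 endothelial marker genes, 1 was called lower (Kdr, a receptor for vascular endothelial growth factor), with a summed level of 7628 to 12703 in Control and 7517 to 11235 in IDPN. At an unadjusted p under 0.05, DESeq2 and edgeR each gave 1 of these markers lower and 3 higher. Tie1 (log2-Fold_Change 0.66) and Vwf (0.69), neither called, had every IDPN library above every Control library. The parts of Schwann cells and endothelium in these levels were not tested. Cdh6, Cdh8, Cdh10, Cdh20 and Cdh24 had means between 5.54 and 54.0 over the libraries and were not called.

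The type I cadherins did not share a direction, with 1 of 5 called lower and 0 higher. Their log2-Fold_Change was negative in 4 of the 5 genes. Their summed level, most of it Cdh1, was 6407, 5687 and 6143 in the Control libraries. In the IDPN libraries it was 7325, 9287 and 6671, with no overlap (log2 ratio of the group means 0.35). Cdh4, R-cadherin, stood at 224, 206 and 228 in Control and at 129, 109 and 146 in IDPN, with no overlap. It fell in IDPN (log2-Fold_Change -0.78, SE 0.25, DESeq2 Padj = 0.0333), a call that edgeR did not make (0.0871) and that was kept only without IDPN 3, with a Padj of 0.0411 to 0.163 when each library was left out. Cdh2, N-cadherin, stood at 684, 585 and 603 in Control and 397, 422 and 470 in IDPN. These groups did not overlap either, but Cdh2 missed the threshold (log2-Fold_Change -0.54, SE 0.18, DESeq2 Padj = 0.0544; 95% interval -0.90 to -0.18). With total-count scaling the log2-Fold_Change of Cdh2 was -0.28 (DESeq2 Padj = 0.517).

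Cdh1, E-cadherin (ENSMUSG00000000303.12, chr8:106603351-106670246 on the plus strand), was the opposite case. It stood at 4779, 4240 and 4577 in Control and at 6067, 8113 and 5392 in IDPN, so that every IDPN library was above every Control library. The difference missed the threshold (log2-Fold_Change 0.53, SE 0.18, DESeq2 Padj = 0.0556). It passed with total-count scaling (0.76, Padj = 0.0145) and without IDPN 3 (0.64, Padj = 0.0260). Cdh3, P-cadherin, stood at 671, 592 and 618 in Control and at 652, 567 and 600 in IDPN. The groups overlapped, and the log2-Fold_Change was -0.05 (95% interval -0.39 to 0.30), or 0.21 with total-count scaling. Cdh15, M-cadherin, lay between 49.7 and 117 over the libraries and was not called.

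A ratio of 2 genes within a library does not depend on how libraries are scaled. The log2 ratio of Cdh2 to Cdh1 was -2.80, -2.86 and -2.92 in the Control libraries and -3.93, -4.26 and -3.52 in the IDPN libraries. The 3 Control values lay within a narrow range, and every IDPN value was below it. The mean ratio was 1.04 lower in IDPN on the log2 scale (difference -1.04), and a two-sided exact permutation test gave p = 0.10, which is the lowest value that this design can reach. It lay between -1.24 and -0.86 when each library was left out. A pair of ratios chosen after the values were seen gave a difference of -0.55 for Cdh3 to Cdh1 and of -0.49 for Cdh2 to Cdh3, each with no overlap between the groups. Cdh1 made up 75.6% ± 0.21 of the per-kb sum of the 5 type I cadherins in Control and 84.2% ± 3.18 in IDPN (SD, n = 3). The share of Cdh2 was 9.52% ± 0.42 in Control and 5.22% ± 1.19 in IDPN.

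**Figure D3:**
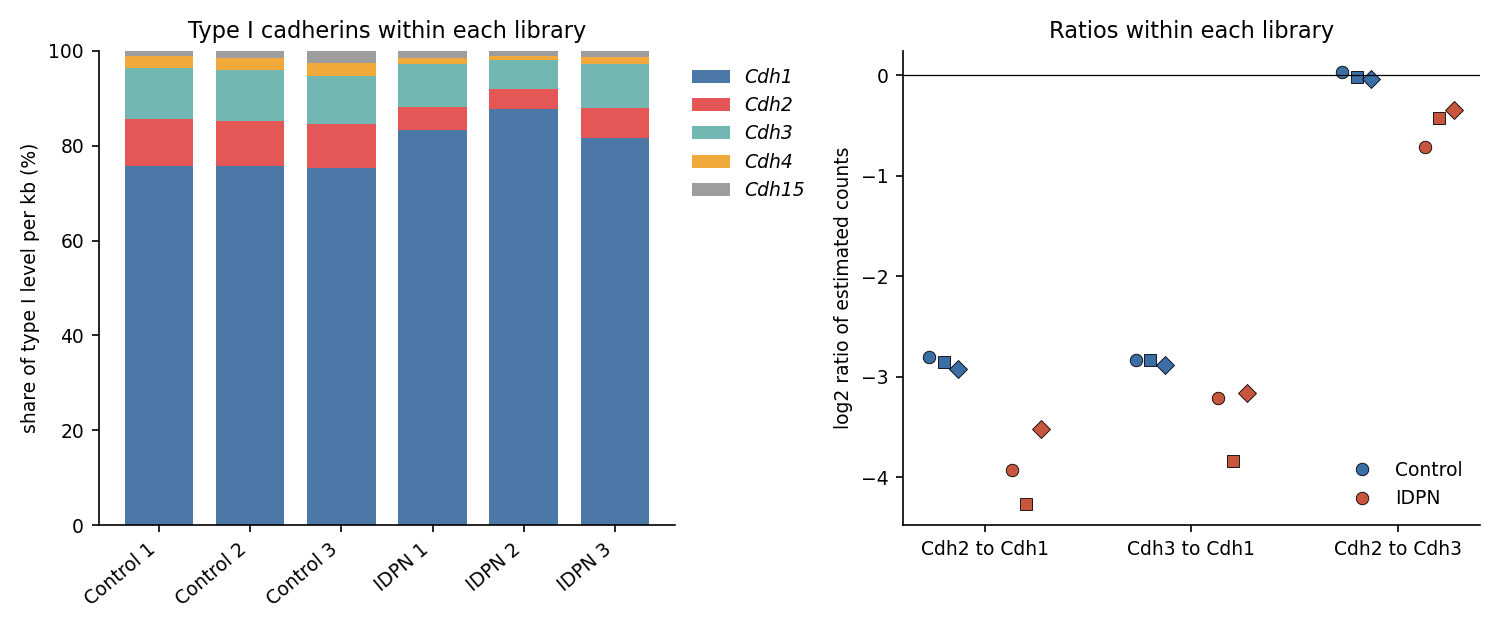
Share of each type I cadherin in the per-kb sum of the 5 genes, in percent, for each of the 6 libraries. Cdh1 takes 75.4 to 75.8% in the Control libraries and 81.5 to 87.7% in the IDPN libraries, and Cdh2 takes 9.52% and 5.22% on average.

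Of the 4 other cadherins, Cdh16 and Cdh17 were at 0 and the other two were low. Cdh13, T-cadherin, is held in the membrane by a lipid anchor and has no catenin-binding tail. It stood at 34.0, 32.3 and 79.2 in Control and at 0, 10.0 and 2.80 in IDPN. The groups did not overlap. Cdh13 fell in IDPN (log2-Fold_Change -3.55, SE 0.80, DESeq2 Padj = 0.000523), with an edgeR adjusted p of 0.0612 and a Padj of 0.0625 without Control 3. The log2-Fold_Change was -5.18 without IDPN 2, so its size rests on few counts. Cdh26 stood at 37.6, 49.6 and 58.7 in Control and at 29.0, 30.1 and 20.5 in IDPN, also with no overlap, but was not called (log2-Fold_Change -0.88, SE 0.46, DESeq2 Padj = 0.319). Of the 5 cadherin-related genes, Cdhr1, a photoreceptor cadherin, and Cdhr4 were tested and not called, at means of 89.0 and 20.3. Cdhr4 shares exons with other gene models on its own strand, so its count is uncertain.

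Pcdh20 (ENSMUSG00000050505.7, chr14:88464743-88471396 on the minus strand) also had the highest normalized counts. It stood at 16692, 16227 and 16847 in the Control libraries and at 11225, 10268 and 8928 in the IDPN libraries. The groups were far apart relative to their spread, with means of 16589 ± 323 and 10141 ± 1154 (SD, n = 3). Pcdh20 fell in IDPN (log2-Fold_Change -0.71, SE 0.15, DESeq2 Padj = 0.000126; edgeR 0.0492), a level 1.64-fold lower. With total-count scaling the fall was 0.46 (a log2-Fold_Change of -0.46) and not past the threshold (Padj = 0.238). Its class partner Pcdh12, an endothelial protocadherin, had a mean of 13.4 and was not called.

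The delta protocadherins, which carry short conserved motifs in their tails that bind phosphatase and actin regulators, gave 1 call in 8 genes tested. Pcdh1, a delta-1 protocadherin of epithelia, stood at 69.1, 106 and 189 in Control and at 304, 587 and 259 in IDPN. Its lowest IDPN library was above its highest Control library, though values within each group spread widely. Pcdh1 rose in IDPN (log2-Fold_Change 1.65, SE 0.37, DESeq2 Padj = 0.000397), 3.14-fold, with an edgeR adjusted p of 0.0584. Pcdh9, the most abundant of the family, stood at 1504, 1005 and 1520 in Control and at 1353, 1053 and 986 in IDPN. The groups overlapped (log2-Fold_Change -0.25, SE 0.21, DESeq2 Padj = 0.625), and the direction was lost with total-count scaling. Pcdh7 and Pcdh11x of the delta-1 class and Pcdh10, Pcdh17, Pcdh18 and Pcdh19 of the delta-2 class had means between 13.3 and 267 and were not called. The summed levels of the delta-1 genes (log2 ratio -0.002) and of the delta-2 genes (0.06) lay within overlapping ranges.

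**Figure D4:**
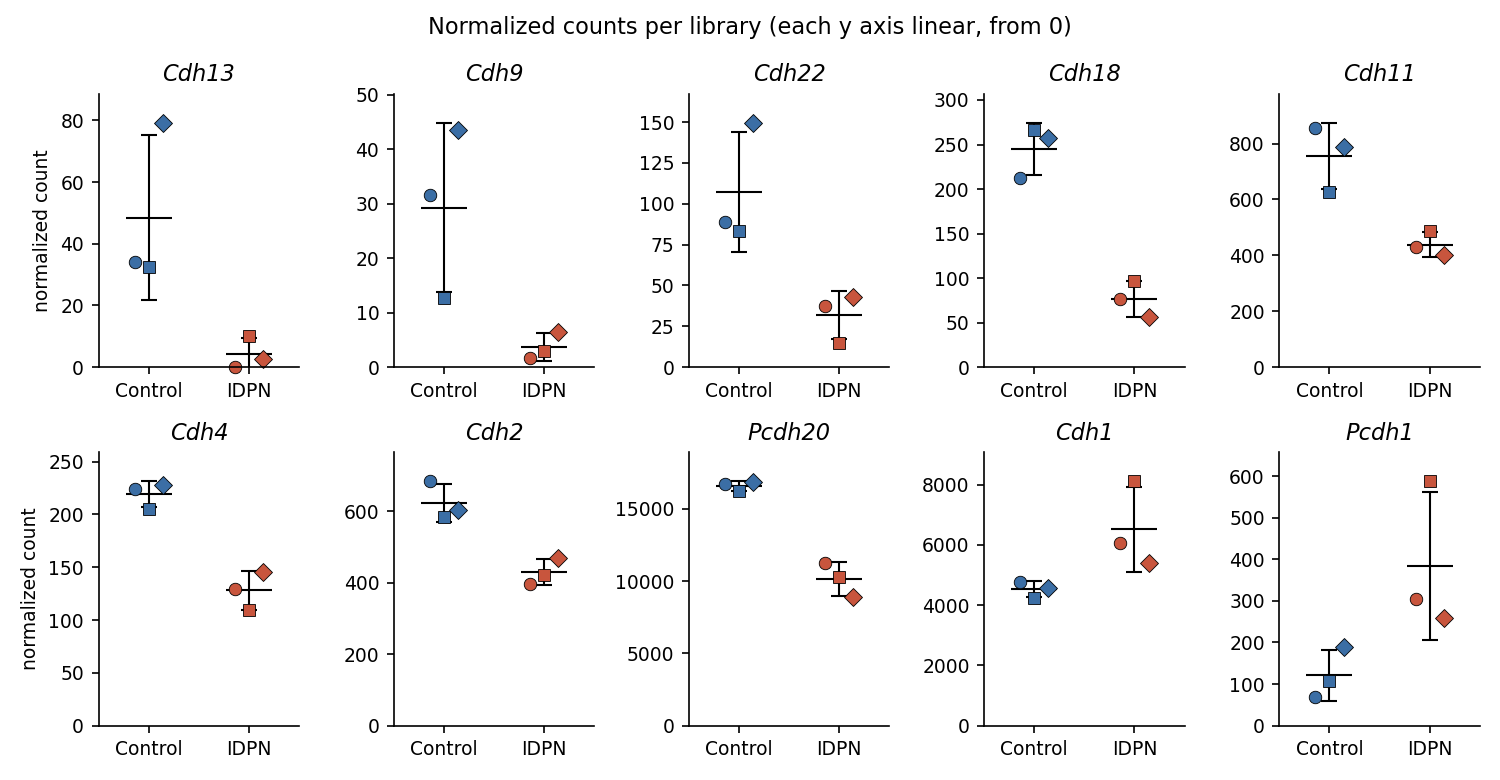
Normalized counts of 10 members in each library on linear axes from 0, with a circle, square and diamond for replicates 1, 2 and 3, and lines for the group mean and SD. Cdh13, Cdh9, Cdh22, Cdh18, Cdh11, Cdh4, Cdh2 and Pcdh20 have every IDPN point below every Control point, and Cdh1 and Pcdh1 have every IDPN point above.

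RefSeq promoter windows of the GRCm38.p6 build were used for 25 of the 38 members, among them 4 of the 8 called genes. These were 28 windows of 250 bases before a transcript start. The upstream sequences of 3 called genes are shown because they differ in base composition. Bases of exons are left out, each sequence runs 5′ to 3′ on the strand of its gene, and capitals mark the motif named. Cdh18 is on the plus strand at chr15:23036213-23036454 (CCAAT in capitals), at a RefSeq start that lies inside the longer gene model of the annotation used here. Pcdh20 is on the minus strand at chr14:88471397-88471646 (CCAAT), and Cdh22 is on the minus strand at chr2:165234854-165234987 (the GC box GGGCGG).
Cdh18: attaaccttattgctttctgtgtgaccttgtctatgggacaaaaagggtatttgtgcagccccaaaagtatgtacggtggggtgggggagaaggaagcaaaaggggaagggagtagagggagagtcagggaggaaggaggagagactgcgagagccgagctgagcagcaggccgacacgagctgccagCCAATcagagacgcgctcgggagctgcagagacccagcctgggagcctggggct
Pcdh20: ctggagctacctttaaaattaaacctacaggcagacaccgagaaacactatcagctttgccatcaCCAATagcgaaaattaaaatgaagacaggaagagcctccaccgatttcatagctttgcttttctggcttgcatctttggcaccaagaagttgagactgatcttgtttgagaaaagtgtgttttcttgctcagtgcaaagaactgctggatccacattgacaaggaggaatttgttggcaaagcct
Cdh22: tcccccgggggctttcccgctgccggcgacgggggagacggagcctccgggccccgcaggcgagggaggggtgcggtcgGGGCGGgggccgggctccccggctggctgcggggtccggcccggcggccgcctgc

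GC content of the whole window was 58.0% for Cdh18, 42.4% for Pcdh20 and 77.6% for Cdh22, against a median of 52.4% over all windows. Motifs were searched on both strands by their exact letters. The member windows used did not include Cdh1, Cdh3, Cdh4, Cdh11 or Cdh13, so Cdh1 itself was not searched. Chromosome 18, with Cdh2, Pcdh12 and Pcdh1, the member called higher, was left out of the member windows but not out of all windows. Shares among member windows describe this selected set and were not tested against those of all windows. CCAAT was found in 16 of the 28 member windows and in 33.9% of all 32851 windows. GGGCGG was found in 9 of 28 and in 32.7% of all. The E-box CACCTG, the letters that Snail and Zeb repressors of Cdh1 are known to bind, was found in 4 of 28 member windows and in 17.2% of all, and CAGCTG was found in 2 and 13.0%. TATAAA was found in 1 member window and 12.4% of all. Windows of the called genes Cdh9, Cdh18, Cdh22 and Pcdh20 held no CACCTG, and 3 of these 4 (not Cdh22) held CCAAT. These matches describe letters in a window and nothing about binding.

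Many of the members sit in regions poor in other genes. On chromosome 15, Cdh6, Cdh9, Cdh10, Cdh12 and Cdh18 follow each other with 0 protein-coding genes between neighbours. Of these, Cdh9 and Cdh18 were called lower, Cdh12 was at 0, and Cdh6 and Cdh10 were not called (log2-Fold_Change -0.34 and -0.44). On chromosome 8, Cdh3 and Cdh1 lie 46.1 kb apart on the same strand and had values of -0.05 and 0.53. Pcdh1 and Pcdh12 lie 55.0 kb apart on chromosome 18, with 1.65 for the first and 0.75 for the second, which was not called.

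The genomic span of the members, from transcription start to end, was set beside the calls. Cdh13 spans 1041 kb, Cdh18 925 kb and Cdh4 457 kb, whereas Pcdh20 spans 6.65 kb and Pcdh1 26.1 kb. Of the 7 tested members of 300 kb or more, 3 were called lower, and of the 8 members of 100 to 300 kb, 3 were called lower (Cdh9, Cdh22 and Cdh11). Of the 9 members of 20 to 100 kb, 0 were called lower by DESeq2, and of the 6 members under 20 kb 1 was (Pcdh20). Over all 14678 protein-coding genes with a Padj and a span, 29.6% of the 476 genes of 300 kb or more were called lower and 0.630% higher, with a median log2-Fold_Change of -0.51. In the range of 100 to 300 kb 6.64% were called lower, and in the shorter ranges 2.18 and 2.97%. Each called member is to be read beside the share of its own range. Cdh13, Cdh18 and Cdh4 lie in the range with 29.6%, Cdh9, Cdh22 and Cdh11 in that with 6.64%, and Pcdh20 in that with 2.97%. Pcdh1, the member called higher, lies in the range of 20 to 100 kb, where 2.51% of genes were called higher. Of 456 genes of 300 kb or more edgeR called 91 lower. The share of these long genes called lower was 13.3% with total-count scaling and 32.3% with an offset for transcript length. The tested members of 300 kb or more that were not called are Pcdh9 (877 kb), Pcdh11x (620 kb), Pcdh7 (415 kb) and Cdh8 (392 kb). The part of gene span in the values of the called members was not tested.

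**Figure D5:**
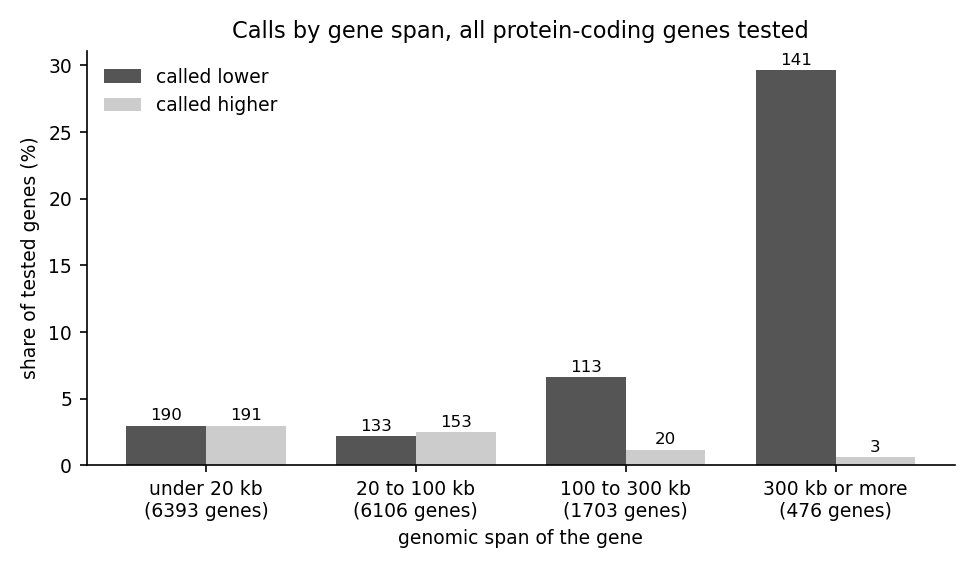
Percent of protein-coding genes called lower and higher in IDPN by genomic span (under 20 kb, 20 to 100 kb, 100 to 300 kb, 300 kb or more), over all protein-coding genes tested, with the number of genes called above each bar. The share called lower is 29.6% in genes of 300 kb or more and at most 6.64% in each shorter range.

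The genes that cadherins act with were read from fixed lists. Of 13 catenins and junction linkers, 3 were called lower and 0 higher, with a median log2-Fold_Change of -0.11. The abundant core of the epithelial junction was not called. Ctnnb1, beta-catenin, stood at 14723, 19301 and 19938 in Control and at 19057, 22730 and 20350 in IDPN (log2-Fold_Change 0.20, SE 0.17, DESeq2 Padj = 0.614). The groups overlapped. Ctnna1, Ctnnd1 and Jup (alpha-E-catenin, p120-catenin and plakoglobin) had values of -0.02, 0.27 and -0.15, with no call. Every IDPN library of Ctnnd1 (3933 to 4667) was above every Control library (3277 to 3924). Of the 13 genes, 2 lay above in this way and 4 below, against 11.1% and 11.4% of all genes tested.

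Ctnna2, the neuronal alpha-catenin, stood at 224, 209 and 235 in Control and at 57.9, 27.1 and 27.1 in IDPN. No IDPN library came near the Control range. It fell in IDPN (log2-Fold_Change -2.57, SE 0.34, DESeq2 Padj = 1.36e-11; edgeR 0.00376). Ctnnd2, the neuronal delta-catenin, stood at 201, 328 and 410 in Control and at 166, 138 and 108 in IDPN, again with no overlap. It fell by 1.19 (SE 0.30, DESeq2 Padj = 0.00238; edgeR 0.0561), with a Padj of 0.0525 without IDPN 3. Vcl, vinculin, which ties catenins to actin, fell by 0.59 (SE 0.15, DESeq2 Padj = 0.00401; edgeR 0.0656), and its fold change came under 1.5 without Control 1 or IDPN 3. The spans of Ctnna2 and Ctnnd2 are 1098 and 857 kb, in the range of span where lower calls were frequent.

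In the same libraries Nefl, Nefm and Snap25 of the neuronal marker list were called lower (3 of 8 tested, 0 higher). The summed level of the list was 5346 to 5731 in Control and 3502 to 3750 in IDPN. Nefl made up 53.4 to 61.3% of this sum, and the other 8 genes summed to 2382 to 2641 and 1384 to 1748. Tubb3 and Nefh of the same list had means of only 9.47 and 2.81 over the libraries. The list therefore gives no measure of the number of neurons. Supporting cell markers gave 1 gene lower (Gjb6) and 1 higher (Sox10) of 12, with a summed level of 321928 to 450789 in Control and 230676 to 274741 in IDPN. None of the neuronal or HC marker genes was at 0 in all libraries. The part of nerve terminals or HCs in the levels of Cdh18, Pcdh20, Ctnna2 and Ctnnd2, or of supporting cells in that of Cdh1, was not tested.

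Of the nectins, adhesion proteins that work beside cadherins, 0 of 4 tested by DESeq2 and 0 of 3 tested by edgeR were called, at an unadjusted p under 0.05 there were 0 as well, and Nectin2, the most abundant, had a log2-Fold_Change of 0.54 (Padj = 0.340). Of 15 desmosome genes 7 were listed at 0 and 8 were tested. All of these 8 had a positive log2-Fold_Change, with a median of 0.43. Their summed level was 3410 to 3710 in Control and 4651 to 4840 in IDPN, and 5 of the 8 had every IDPN library above every Control library, against 11.1% of all genes tested. Pkp1, a plakophilin of desmosome plaques, stood at 205, 149 and 150 in Control and at 368, 237 and 347 in IDPN. It rose in IDPN (log2-Fold_Change 0.92, SE 0.26, DESeq2 Padj = 0.0106), a call that edgeR (0.0645) did not make and that was lost without Control 2, IDPN 1 or IDPN 3, with a Padj of up to 0.128. Dsp, desmoplakin, the most abundant, was at 921 ± 133 in Control and 1302 ± 209 in IDPN (SD, n = 3) and not called (DESeq2 Padj = 0.105).

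Of 13 large and other cadherin superfamily genes, 12 were tested and 1 was called. Clstn2, a calsyntenin of synapses that carries cadherin repeats, stood at 101, 107 and 145 in Control and at 39.7, 12.1 and 13.1 in IDPN. It fell in IDPN (log2-Fold_Change -2.43, SE 0.47, DESeq2 Padj = 1.62e-05; edgeR 0.0252), or -3.23 without IDPN 1, its highest IDPN library, and it spans 589 kb. Clstn1, the most abundant of the list, was not called (log2-Fold_Change 0.23). None of the 12 tested repressors and sheddases of cadherins and none of the 12 partners of delta protocadherins, among them Ppp1ca (0.20), was called by DESeq2 or edgeR. At an unadjusted p under 0.05 both tools gave 1 repressor or sheddase lower and 2 higher, and 1 delta partner lower. The median log2-Fold_Change was 0.21 for the repressors and sheddases and 0.18 for the delta partners.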

How the data were processed

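Bulk RNA-seq of 3 Control and 3 IDPN libraries was analysed. Per the labels, libraries followed a SMART-seq2 protocol from oligo-dT primers, with no strand mark and no molecular identifiers, so limits from a count of 0 (3 counts) cover counting error only. The authors aligned reads with STAR 2.5.3a to GRCm38 and estimated counts with RSEM (2.3.0 in the submitters' processing notes). What they deposited is the table of expected (estimated) counts as whole numbers, not normalized. RSEM divides shared reads among similar genes.

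DESeq2 1.42.0 (R 4.3.3, median-of-ratios size factors, Wald test, no covariate) was fitted on all genes. Genes were called at Padj under 0.05 and a fold change above 1.5, the thresholds in the study's methods. edgeR 4.0.16 was an alternative test, and the scripts were tested on simulated data. Positions and spans came from GENCODE on GRCm38, promoters from RefSeq. Each library is 1 animal. The members, lists and tests were chosen with earlier results of these data known. Named with values are members that were called, had a mean of at least 500, or are Cdh1 to Cdh5 or Cdh18, and in each partner list the called and the most abundant genes (1 of these is not reported here). Other members are given by their mean or range in their class, and Cdh6, Cdh7, Cdh10, Cdh26, Pcdh12, Ctnna1, Ctnnd1 and Jup were given values after these were seen.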

Additional observations from a re-analysis of the deposited data

How the results depend on the processing

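The count of members called lower (7) was 3 with edgeR, 3 with total-count scaling and 2 when DESeq2 tested against a fold change of 1.5 (Cdh13 and Cdh18), and it ranged from 3 (without Control 3) to 7 when each library was left out. The count called higher (1) was 0 with edgeR, 2 with total-count scaling, 0 against a fold change of 1.5, and 1 to 2 over the left-out libraries. Members with every IDPN library above every Control library (2) numbered 2 to 6 over the left-out libraries (6 without Control 3, 4 without IDPN 2), and members below (9) numbered 9 to 11. With total-count scaling 6 members lay below and 3 above. Catenins and linkers called (3) numbered 1 with edgeR and 1 against a fold change of 1.5, and ranged from 1 (without IDPN 3) to 3. Desmosome genes called (1) were 0 with edgeR, 2 with total-count scaling and 0 against a fold change of 1.5, and ranged from 0 to 2. Superfamily genes called (1) ranged from 1 to 2 (2 without Control 3 or IDPN 1). With total-count scaling the log2 ratio of summed levels was -0.52 for type II cadherins (-0.78 as reported) and -0.45 for Pcdh20 with Pcdh12 (-0.71), and log2-Fold_Change turned to 0.21 for Cdh3, to 0.11 for Cdh5 and to 0.0038 for Pcdh9. For Cdh5 it ranged from -0.26 to 0.0925 over the left-out libraries, positive without Control 3 (0.0925) and without IDPN 3 (0.0122). The cause of these changes was not tested. The share of genes of 300 kb or more called lower, computed after the data were seen, was 13.3% with total-count scaling and 32.3% with length offsets against 29.6%, and edgeR called 91 of 456. No paired analysis was possible because the labels give the groups no shared replicate numbers. Cdh13 and Cdh9, at fewer than 50 normalized counts on average in Control, are the called members for which depth limits precision most.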
